A study of Sus scrofa with 3 samples.

Results

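The genes described here are 8 enzymes of mitochondrial fatty acid oxidation and ketone body formation, read in pig liver: CPT1A, CPT2, HADHA, ACADVL, ACAA2, BDH1, CROT and ECH1. All 8 were matched by Ensembl gene ID among the 25322 gene IDs counted. They were chosen with their differences between these libraries known, so every value of theirs is a description and carries no test. Total RNA came from the livers of 3 male pigs at postnatal day 90, with 1 library from an Enshi black pig (a Chinese local breed), 1 from a Large White pig (a European commercial breed) and 1 from a Chinese wild boar. The labels give no treatment, diet or genotype beyond the breed. Pooling is not mentioned, so each library is taken as 1 animal, and breed, animal and library cannot be told apart.

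As background, long-chain fatty acids are activated to acyl-CoA and carried into the mitochondrion as carnitine esters, and there shortened in repeated rounds of dehydrogenation, hydration, a second dehydrogenation and thiolytic cleavage. In liver the acetyl-CoA that leaves this cycle feeds the citrate cycle or is turned into ketone bodies for other tissues. Many genes of the pathway are targets of the nuclear receptor PPAR alpha, which is active in fasting, and pigs are known for a low capacity to make ketone bodies. In tissue RNA, fewer cells of a type and less RNA per cell cannot be told apart.

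The tables held 19982627 to 20654571 gene counts per library. Levels are in CPM (counts per 1000000 counts of the library, with totals corrected by TMM, a trimmed mean of ratios between libraries). Ranges in parentheses behind folds are exact binomial intervals at 95% for counting error alone and hold no variation between animals. The size rule asked for an interval that lay wholly at or beyond a 2-fold difference. Of 14 hepatocyte markers with a matched ID, summed levels were 70587 CPM in Large White, 115053 in Enshi black and 101506 in Chinese wild boar. Among them APOA1 was barely counted, with 0 counts in Large White and 2 in each other library. ALB carried much of that sum (25310, 66508 and 53648 CPM). Of the 13 expressed markers, 7 lay lower in Enshi black than in Large White, against 6531 of all 13228 expressed genes. The median log2 fold of the markers was -0.43, and FGB was 4.53-fold lower. The same sums, in that order, were 530, 1334 and 758 CPM for 12 stellate cell and fibroblast markers (LUM was at 0 counts in Large White), and 1989, 1537 and 1770 CPM for 8 Kupffer cell and macrophage markers, none of them at 0. They were 1073, 840 and 748 CPM for 6 endothelial markers (none at 0) and 129, 127 and 57.6 CPM for 8 gene IDs of T and NK cell markers, with a GZMA ID at 0 in Enshi black and Chinese wild boar. Other markers had sums of at most 186 CPM: 33.5, 33.6 and 29.2 CPM for 6 cholangiocyte markers, 23.7, 25.4 and 20.2 CPM for 6 B and plasma cell markers and 106, 44.9 and 186 CPM for 3 erythroid markers. The sums were 4.45, 5.61 and 4.14 CPM for 4 striated muscle markers, with ACTA1 or MYL1 at 0 in each library, and 2.05 to 5.46 CPM for the fat marker PLIN1. In several lists the members did not follow the sum. For Chinese wild boar over Enshi black, 9 of 13 expressed hepatocyte markers lay above 0 (median log2 fold 0.46). So did 3 of 5 expressed cholangiocyte markers (median 0.69), against 6553 of all 13228 expressed genes. The erythroid sum was mostly HBB, with 102 CPM in Large White, 36.5 in Enshi black and 182 in Chinese wild boar. In that order, ALAS2 had 2.92, 7.74 and 3.44 CPM and SLC4A1 had 4, 14 and 1 counts. Of the 6 endothelial markers, 4 lay above 0 for Enshi black over Large White (median log2 fold 0.14), against 6694 of all 13228 expressed genes. STAB1, by contrast, had 499 CPM in Large White and 186 in Enshi black. Of the 6 B and plasma cell markers, 3 passed the size rule as higher and 1 as lower for Enshi black over Large White (median 1.11). Of all expressed genes, 4.69% and 8.39% did so. For Chinese wild boar over Enshi black, 1 marker passed as higher and 4 as lower (median -2.03), against 7.10% and 4.03% of all expressed genes. The part of cell makeup in the differences below was not tested.

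Most of the 8 enzymes had their highest level in Chinese wild boar. This held for CPT1A, CPT2, HADHA, BDH1, CROT and ECH1, whereas ACAA2 was highest in Large White, and ACADVL, which was barely counted, was highest in Enshi black. The lowest level lay in Large White for CPT1A, CPT2, HADHA, ECH1 and ACADVL and in Enshi black for ACAA2, BDH1 and CROT. The 8 genes therefore did not share 1 order of libraries.

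**Figure D1:**
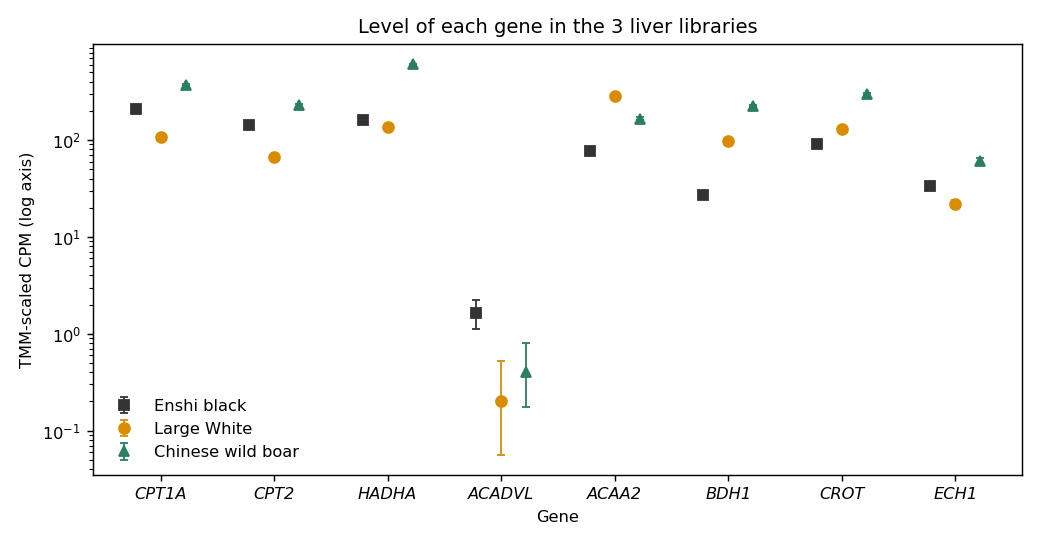
TMM-scaled CPM (log axis) of each of the 8 genes in the 1 library of each breed, with 95% Poisson intervals for counting error that are mostly hidden by the points. The triangle of Chinese wild boar is the top point for 6 genes, and ACADVL lies at 0.205 to 1.62 CPM.

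CPT1A and CPT2 are the paired carnitine palmitoyltransferases of the outer and inner mitochondrial membrane: CPT1A makes the acylcarnitine and is inhibited by malonyl-CoA, and CPT2 turns it back into acyl-CoA inside. CPT1A had 2111 counts in Large White, 4487 in Enshi black and 7364 in Chinese wild boar, or 108, 208 and 372 CPM. CPT2 had 1317, 3079 and 4503 counts, or 67.4, 143 and 228 CPM. Both genes were thus lowest in Large White, intermediate in Enshi black and highest in Chinese wild boar, in similar proportion. The step from Large White to Enshi black was 1.92-fold for CPT1A (1.83 to 2.03) and 2.12-fold for CPT2 (1.98 to 2.26), and neither passed the size rule. The further step from Enshi black to Chinese wild boar was 1.79-fold (1.72 to 1.86) and 1.60-fold (1.52 to 1.67), again short of it.

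CROT, the carnitine octanoyltransferase of peroxisomes, makes carnitine esters of the shortened chains that leave the peroxisome. It had 2533 counts in Large White, 1971 in Enshi black and 5886 in Chinese wild boar, or 130, 91.3 and 297 CPM. Enshi black and Large White lay nearer to each other, and Chinese wild boar stood above both. CROT was 3.26-fold higher in Chinese wild boar than in Enshi black (3.09 to 3.43) and 2.29-fold higher than in Large White (2.19 to 2.41), while Enshi black was 1.42-fold below Large White (1.34 to 1.51).

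HADHA is the alpha subunit of the mitochondrial trifunctional protein and carries its hydratase and hydroxyacyl-CoA dehydrogenase activities on long chains. Its counts were 2681 in Large White, 3459 in Enshi black and 11963 in Chinese wild boar, or 137, 160 and 605 CPM. Enshi black and Large White differed by 1.17-fold (1.11 to 1.23), and Chinese wild boar lay 3.77-fold above Enshi black (3.63 to 3.92). Among the 8 genes HADHA had the largest fold of Chinese wild boar over Large White, 4.41-fold (4.23 to 4.60).

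ACAA2, the mitochondrial thiolase that cleaves medium-length chains, went the other way. It had 5525 counts in Large White, 1672 in Enshi black and 3293 in Chinese wild boar, or 283, 77.5 and 166 CPM. Large White was the high library and Enshi black the low one. Enshi black lay 3.65-fold below Large White (3.45 to 3.86), Chinese wild boar lay 1.70-fold below Large White (1.63 to 1.77), and Chinese wild boar exceeded Enshi black 2.15-fold (2.02 to 2.28).

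ECH1, a dienoyl-CoA isomerase needed for some unsaturated chains, had 428 counts in Large White, 719 in Enshi black and 1213 in Chinese wild boar, or 21.9, 33.3 and 61.3 CPM. Its order of libraries was that of CPT1A and CPT2. Enshi black was 1.52-fold above Large White (1.35 to 1.72), and Chinese wild boar was 2.80-fold above Large White (2.50 to 3.13) and 1.84-fold above Enshi black (1.68 to 2.02).

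BDH1, the mitochondrial hydroxybutyrate dehydrogenase that interconverts the 2 main ketone bodies, had the widest span of the genes with more than 100 counts in every library. It had 1911 counts in Large White, 589 in Enshi black and 4422 in Chinese wild boar, or 97.8, 27.3 and 223 CPM. Each step was large: Large White was 3.58-fold above Enshi black (3.27 to 3.94), and Chinese wild boar was 2.29-fold above Large White (2.17 to 2.41) and 8.19-fold above Enshi black (7.51 to 8.94).

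ACADVL, the very long-chain acyl-CoA dehydrogenase of the inner membrane, had 4 counts in Large White, 35 in Enshi black and 8 in Chinese wild boar, or 0.205, 1.62 and 0.404 CPM. It entered the comparisons through its level in Enshi black alone, since the filter asked for 1 CPM in at least 1 library. Enshi black was 7.92-fold above Large White (2.83 to 30.7), and the interval of Chinese wild boar over Large White (0.529 to 8.96) held 1. ACADVL was the 1 gene with a pair of neighbouring levels that counting error alone could not separate. In RefSeq's Sscrofa11.1 annotation its span overlaps that of DLG4, which had 209, 76 and 131 counts. Reads falling on overlapping features are set apart as ambiguous in the deposited tables (1.89% to 2.49% of reads). The ACADVL level is therefore uncertain, and the part of such reads in it was not tested.

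The comparison of Chinese wild boar with Large White asked how the wild animal's liver differed from that of the commercial breed. In it, CPT1A, CPT2, HADHA, BDH1, CROT and ECH1 passed the size rule as higher, and none passed as lower. This was 6 of 8 genes, against 2.96% of the 13228 expressed genes, but the genes were chosen on these contrasts and nothing is read from the difference. Their median log2 fold was 1.34, against 0.00 over all expressed genes. When animals were assumed to vary with a coefficient of variation of 0.4 on top of the counting error, none of the 6 passed, and with 0.2 only HADHA did.

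In the comparison of Chinese wild boar with Enshi black, HADHA, ACAA2, BDH1 and CROT passed as higher, against 7.10% of expressed genes, and none passed as lower. The median log2 fold of the 8 genes was 0.99, against -0.01 over all expressed genes. ACAA2 passed narrowly and did not pass with total counts in place of TMM. With an assumed coefficient of variation of 0.4, BDH1 alone passed.

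In the comparison of Enshi black with Large White, ACADVL passed as higher (4.69% of expressed genes did so) and ACAA2 and BDH1 passed as lower (8.39%). ACADVL met the expression filter only through Enshi black, its high library, and its level is uncertain, so nothing is read from its pass. The median log2 fold was 0.41, against 0.01 over all expressed genes, with 5 of 8 genes above 0, ACADVL among them. CPT2 lay just short of the rule, with a near bound of 1.98, and passed with total counts. ACADVL was lost with a wider interval (a confidence above 95%), and none of the 3 passed with an assumed coefficient of variation of 0.4. The 3 comparisons share libraries pairwise and are not independent of each other.

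**Figure D2:**
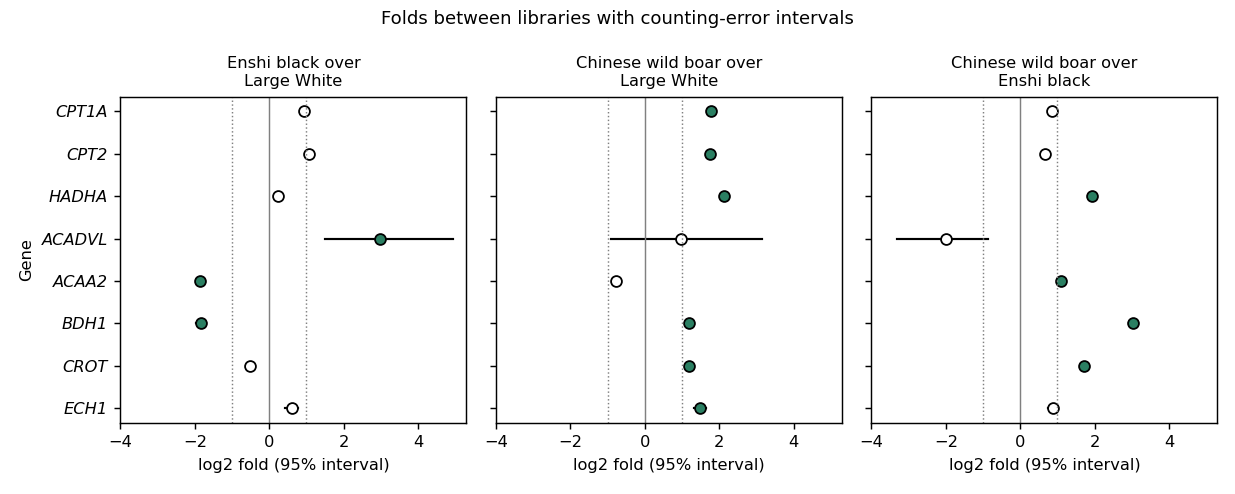
log2 fold of each of the 8 genes in the 3 comparisons, with lines for the 95% counting-error interval, filled points for genes past the size rule and dotted lines at a 2-fold difference. ACAA2 and BDH1 lie left of 0 for Enshi black over Large White, and 6 genes lie past the right dotted line for Chinese wild boar over Large White.

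**Figure D3:**
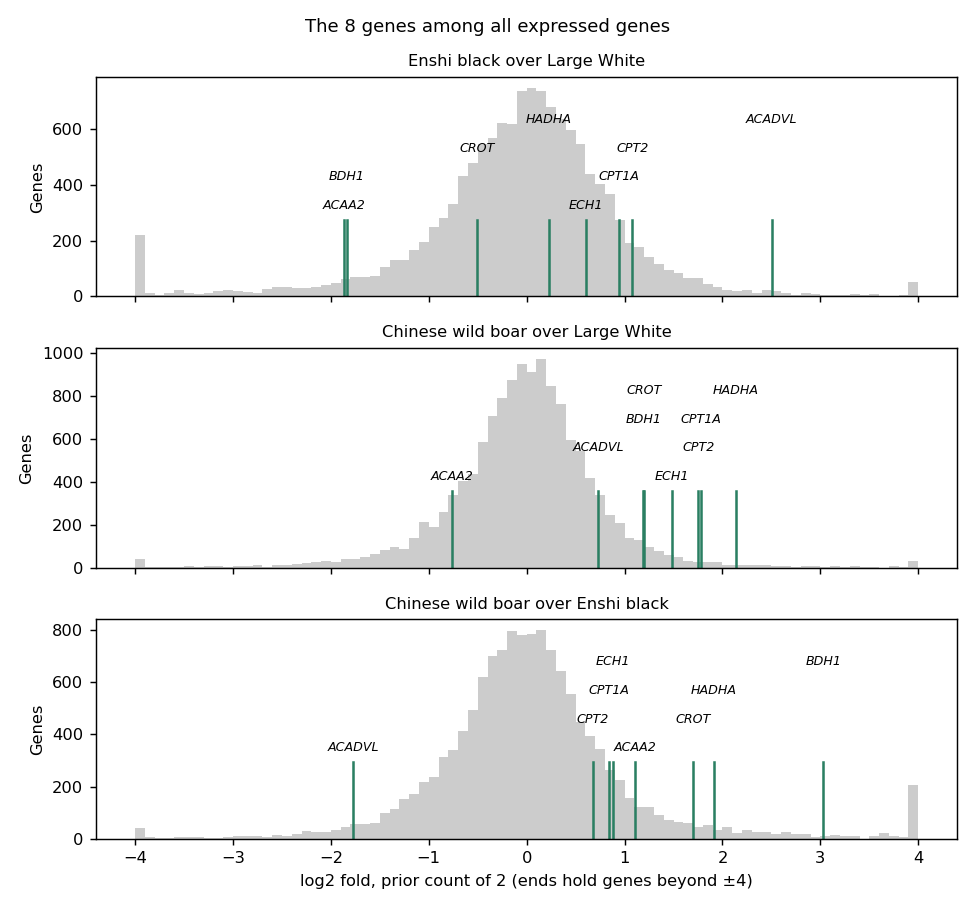
Histogram of log2 folds (prior count of 2) over the 13228 expressed genes in each comparison, with a green line at each of the 8 genes and its symbol above. The lines spread to both sides for Enshi black over Large White, where the median was 0.41, and gather on the right for Chinese wild boar over Large White, where it was 1.34.

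Measured against both other libraries at once, HADHA, BDH1 and CROT passed as higher in Chinese wild boar, where 1.19% of expressed genes did, and ACAA2 and BDH1 passed as lower in Enshi black, where 4.59% did. BDH1 was therefore set apart at both ends. None of the 8 genes was set apart in Large White, where 1.69% of expressed genes passed as higher and 1.07% as lower. At such shares a count of 0 among 8 genes says little.

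The rest of the pathway was read from lists that cover 123 symbols, of which 86 had a matched gene ID and 82 were expressed. Leaving out the 8 genes, 74 remained. Of these 74, 13 (17.6%) passed as higher in Chinese wild boar than in Large White and 5 (6.76%) as lower, against 2.96% and 3.74% of all expressed genes. For Chinese wild boar over Enshi black, 14 (18.9%) passed as higher and 2 (2.70%) as lower, against 7.10% and 4.03%. For Enshi black over Large White, 3 (4.05%) passed as higher and 4 (5.41%) as lower, against 4.69% and 8.39%. Their median log2 folds in the same order were 0.40, 0.36 and 0.05. The lists were drawn up with earlier results of these data known, so the counts are a description.

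Within the carnitine shuttle, the carrier SLC25A20, which exchanges acylcarnitine for carnitine across the inner membrane, had the order of CPT1A and CPT2. It had 17.7 CPM in Large White, 39.5 in Enshi black and 53.4 in Chinese wild boar, and was 3.01-fold higher in Chinese wild boar than in Large White (2.67 to 3.41). BBOX1, the last enzyme of carnitine synthesis, was 2.42-fold higher in the same comparison (2.02 to 2.90). CRAT, the carnitine acetyltransferase, had the order of CROT, with 332, 223 and 588 CPM, and was 2.64-fold higher in Chinese wild boar than in Enshi black (2.55 to 2.73). CPT1C, a CPT1 form best known from neurons, was 3.68-fold lower in Chinese wild boar than in Large White (2.84 to 4.83). CPT1B, the muscle form, had 2.41 to 5.17 CPM and passed in no comparison.

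Of 7 expressed genes of acyl-CoA activation, SLC27A2, a very long-chain acyl-CoA synthetase, was 2.48-fold higher in Chinese wild boar than in Large White (2.36 to 2.62). ACSM5, a medium-chain synthetase, was 2.91-fold lower in the same comparison (2.66 to 3.20). ACSL1, the main long-chain synthetase of liver, had 1323, 842 and 1838 CPM in Large White, Enshi black and Chinese wild boar, and its 2.18-fold step from Enshi black to Chinese wild boar passed (2.15 to 2.22). SLC27A4 also passed in that comparison, at 2.28-fold (2.05 to 2.55). ACSL4, which prefers arachidonic acid, was high in Enshi black alone: 152 CPM against 31.3 in Chinese wild boar and 20.5 in Large White. Enshi black exceeded Large White 7.41-fold (6.67 to 8.24).

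Of the 12 expressed acyl-CoA dehydrogenase and electron transfer genes, all 12 lay above 0 for Chinese wild boar over Large White. Of all 13228 expressed genes, 6623 did so. The intervals of ACADVL and of ACAD10, at 1.01-fold (0.811 to 1.26), held 1. Only ACADL and ACAD11 passed, at 2.54-fold (2.30 to 2.81) and 2.24-fold (2.11 to 2.39). They were 16.7% of the list, against 2.96% of all expressed genes. ACADM, the medium-chain dehydrogenase, had 142 CPM in Large White, 274 in Enshi black and 262 in Chinese wild boar. Its low library was Large White, and its 1.84-fold difference to Chinese wild boar did not pass (1.76 to 1.93). The electron transfer genes ETFA, ETFB and ETFDH had folds of 1.70, 1.55 and 1.82 in that comparison and did not pass.

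Among hydratases, hydroxyacyl-CoA dehydrogenases and thiolases, HADHB, the beta subunit and thiolase of the trifunctional protein, was 2.77-fold higher in Chinese wild boar than in Large White (2.60 to 2.96). HADHB had 62.1 CPM in Large White, 106 in Enshi black and 172 in Chinese wild boar. HSD17B10, a mitochondrial hydroxyacyl-CoA dehydrogenase, was low in Large White alone, with 88.0 CPM against 266 in Enshi black and 338 in Chinese wild boar. It passed against both, at 3.03-fold (2.87 to 3.20) and 3.84-fold (3.64 to 4.05). HADH, the short-chain dehydrogenase, and ACAT1, the acetoacetyl-CoA thiolase, passed in no comparison.

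Beside ECH1, the other auxiliary enzymes for unsaturated chains did not share its order. DECR1, the mitochondrial dienoyl-CoA reductase, was highest in Enshi black, with 197 CPM against 164 in Chinese wild boar and 87.7 in Large White, and passed for Enshi black over Large White at 2.25-fold (2.13 to 2.38). HSDL2 passed for Chinese wild boar over Enshi black, at 2.29-fold (2.18 to 2.41). ECI2 had 499, 290 and 463 CPM and passed in no comparison.

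For ketone bodies, BDH2, a cytosolic dehydrogenase named after BDH1, had 28.5, 18.5 and 48.2 CPM and passed for Chinese wild boar over Enshi black at 2.60-fold (2.31 to 2.93). OXCT1, the enzyme of ketone body use that liver largely lacks, had 3.39 to 5.0 CPM and passed in no comparison.

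Of 12 expressed genes of peroxisomal oxidation, 1 (8.33%) passed as higher and none as lower in Chinese wild boar against Large White. Over all expressed genes these shares were 2.96% and 3.74%. The gene was ABCD3, a transporter of acyl-CoA into peroxisomes, at 2.78-fold (2.59 to 2.99). For Chinese wild boar over Enshi black, ABCD3 passed at 2.58-fold (2.41 to 2.76) and ACAA1, the peroxisomal thiolase, at 2.29-fold (2.21 to 2.36). They were 16.7% of the list, against 7.10% of all expressed genes. DECR2, a peroxisomal reductase, was 2.22-fold lower in Enshi black than in Large White (2.11 to 2.35). It alone passed in that comparison (8.33%, against 8.39%). The thioesterases ACOT7, ACOT8 and ACOT9 passed in no comparison.

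**Figure D4:**
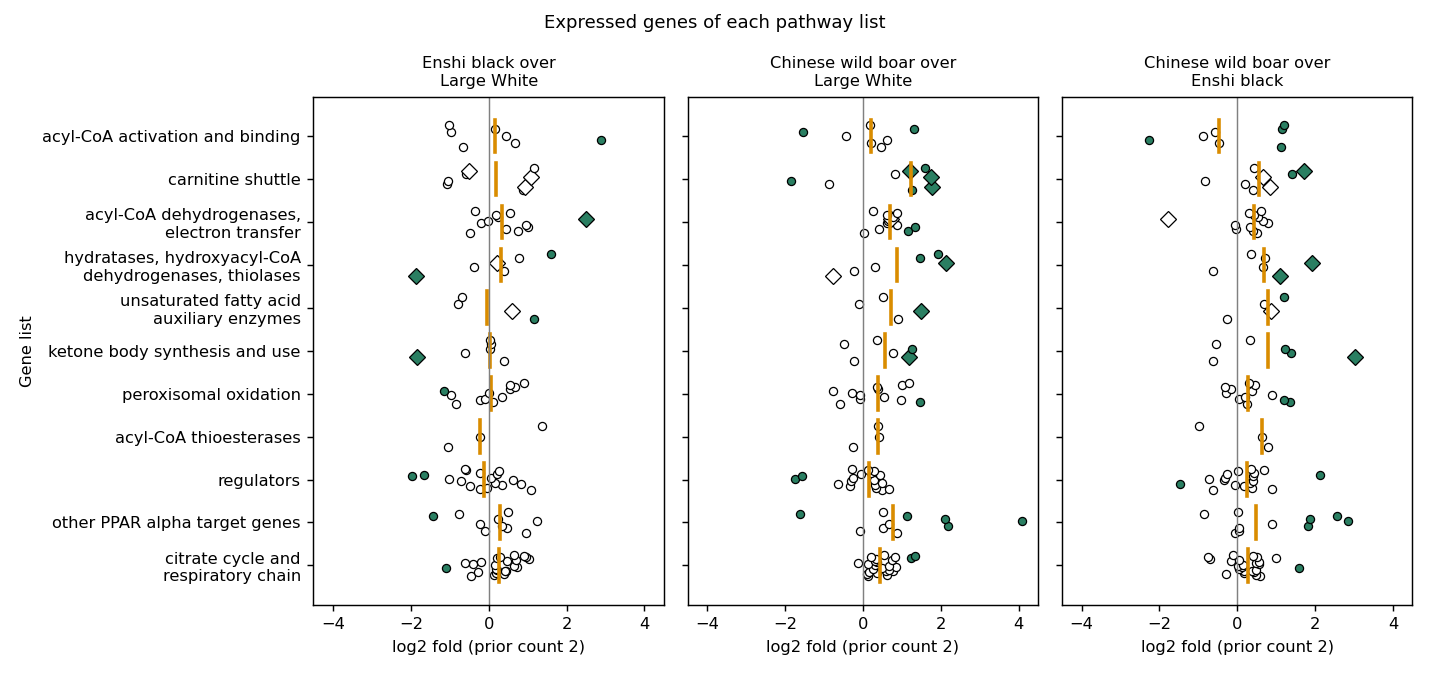
log2 folds (prior count of 2) of the expressed genes of each list in the 3 comparisons, with diamonds for the 8 genes, circles for other genes, filled symbols for genes past the size rule and an orange bar at each list's median. For Chinese wild boar over Large White the carnitine shuttle bar lies at 1.23, with CPT1A, CPT2 and CROT, chosen on these contrasts, among its genes. Over its 5 other expressed genes the median was 0.82. The bar of the citrate cycle and respiratory chain genes lies at 0.43.

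Among regulators of the pathway, PPARA, the nuclear receptor itself, had 22.1 CPM in Large White, 34.0 in Enshi black and 26.9 in Chinese wild boar, and its coactivator PPARGC1A had 18.8, 19.5 and 15.8 CPM. Neither passed in any comparison. Of 18 expressed regulators, none passed as higher and 2 (11.1%, against 3.74% of all expressed genes) as lower in Chinese wild boar than in Large White: PPARD, a related receptor, at 3.34-fold (3.06 to 3.65) and the coactivator PPARGC1B at 3.04-fold (2.18 to 4.30). For Enshi black over Large White, PPARGC1B and PRKAA1 passed as lower (11.1%, against 8.39%). LPIN1, a phosphatidate phosphatase that also acts as a coactivator, was 2.78-fold lower in Chinese wild boar than in Enshi black (2.34 to 3.32). PRKAA1, a catalytic subunit of the kinase AMPK, had 3.02, 0.880 and 4.14 CPM and was 4.71-fold higher in Chinese wild boar than in Enshi black (2.83 to 8.21). ACACB, which makes malonyl-CoA at the mitochondrion, had no matched gene ID and was not analysed here.

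Of 10 expressed genes on the list of other PPAR alpha targets, 4 (40%) passed as higher and 1 as lower in Chinese wild boar than in Large White, against 2.96% and 3.74% of all expressed genes. PDK4, the kinase that shuts off pyruvate dehydrogenase, had 75.9 CPM in Large White, 27.8 in Enshi black and 166 in Chinese wild boar, which is the order of BDH1. It was 2.18-fold higher in Chinese wild boar than in Large White (2.05 to 2.32) and 5.95-fold higher than in Enshi black (5.45 to 6.50). The liver hormone FGF21 had 22 counts in Large White, 60 in Enshi black and 408 in Chinese wild boar. Chinese wild boar exceeded Large White 18.3-fold (11.9 to 29.6) and Enshi black 7.42-fold (5.65 to 9.90). G0S2, an inhibitor of lipolysis, was 4.30-fold higher in Chinese wild boar than in Large White (3.95 to 4.69) and 3.63-fold higher than in Enshi black (3.37 to 3.93). CIDEC, a lipid droplet protein, was 4.57-fold (3.71 to 5.68) and 3.59-fold (2.99 to 4.33) higher in the same comparisons. UCP2, a mitochondrial carrier, was 3.10-fold lower in Chinese wild boar than in Large White (2.59 to 3.72). ANGPTL4, VNN1, ACADM and CREB3L3 passed in no comparison.

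The ratio of 2 genes within a library does not depend on how libraries are scaled. Since such a ratio also depends on transcript length, only its change between libraries is compared, with a normal interval on the log scale for counting error. The ratio of CPT1A to CPT2 counts was 1.60 in Large White, 1.46 in Enshi black and 1.64 in Chinese wild boar, and between Chinese wild boar and Large White it differed by a factor of 1.02 (0.944 to 1.10). Between Enshi black and Large White the factor was 0.909 (0.837 to 0.988). For the 2 subunits of the trifunctional protein the proportion varied more. The ratio of HADHA to HADHB was 2.21, 1.52 and 3.51, and it was 1.59 times as high in Chinese wild boar as in Large White (1.47 to 1.72) and 2.31 times as high as in Enshi black (2.17 to 2.47).

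The ratio of ACAA2 to HADHB, thiolases for medium and long chains, was 4.55 in Large White against 0.733 in Enshi black and 0.967 in Chinese wild boar. Large White was the library that stood apart in this ratio. The ratio of BDH1 to BDH2 was 1.47 in Enshi black against 4.64 in Chinese wild boar and 3.44 in Large White, so Enshi black was the low library. It was 3.15 times as high in Chinese wild boar as in Enshi black (2.72 to 3.64). The ratio of CPT1A to ACACA, a carboxylase that makes malonyl-CoA, was 4.52 in Chinese wild boar against 1.65 in Enshi black and 1.83 in Large White, or 2.47 times as high in Chinese wild boar as in Large White (2.26 to 2.70).

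**Figure D5:**
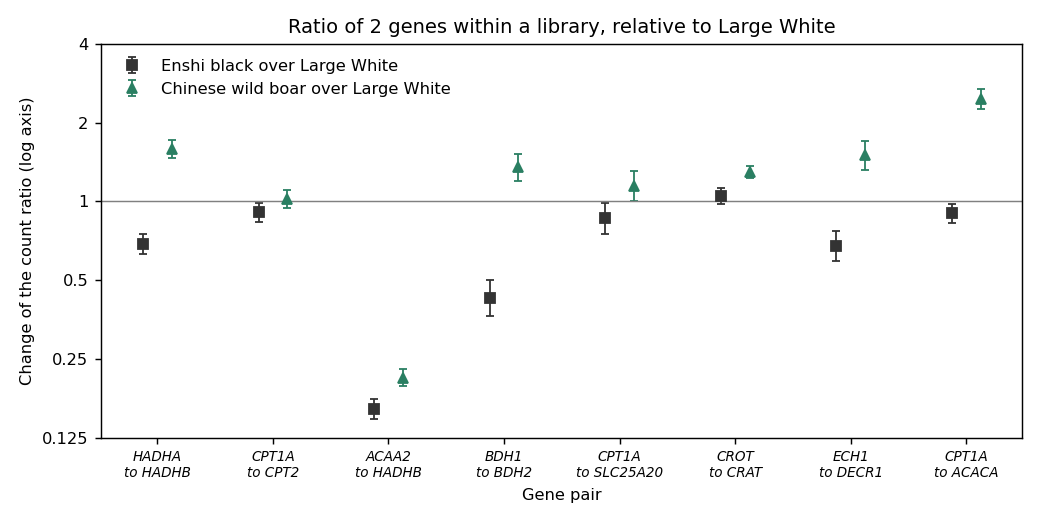
Change of the ratio of 2 genes' counts within a library, relative to the same ratio in Large White (log axis), for Enshi black and Chinese wild boar, with 95% counting-error intervals and a line at 1. The ratio of CPT1A to CPT2 stays near 1, and the ratio of ACAA2 to HADHB lies at 0.161 in Enshi black and 0.212 in Chinese wild boar.

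Most of the other listed nuclear genes of mitochondria also lay higher in Chinese wild boar, and few passed the size rule. The 24 expressed genes of the citrate cycle, respiratory chain and mitochondrial membrane summed to 4425 CPM in Large White, 4514 in Enshi black and 6015 in Chinese wild boar. For Chinese wild boar over Large White, 23 of the 24 lay above 0, with a median log2 fold of 0.43. Of all 13228 expressed genes, 6623 lay above 0. The 2 that passed as higher (8.33%, against 2.96% of all expressed genes) were SUCLG1 at 2.34-fold (2.26 to 2.41) and UQCRC2 at 2.52-fold (2.25 to 2.82). For Chinese wild boar over Enshi black, 19 lay above 0 and 5 below it, against 6553 and 6672 of all expressed genes. The median was 0.28. Only MDH2, malate dehydrogenase, passed there, at 3.02-fold higher in Chinese wild boar (2.91 to 3.13). It was 4.17% of the list, against 7.10% of all expressed genes.

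Per 1000 counts of those 24 genes, CPT1A had 24.4 in Large White, 46.1 in Enshi black and 61.9 in Chinese wild boar, CPT2 had 15.2, 31.6 and 37.8, and HADHA had 31.0, 35.5 and 101. On this scale CPT1A, CPT2 and HADHA still passed as higher in Chinese wild boar than in Large White, at 2.53-fold (2.41 to 2.66), 2.48-fold (2.34 to 2.64) and 3.24-fold (3.11 to 3.38). BDH1, CROT and ECH1 did not, with folds of 1.68 (1.59 to 1.77), 1.69 (1.61 to 1.77) and 2.06 (1.84 to 2.30). ACAA2 passed as lower, with a fold of 0.433 (0.415 to 0.452). For Chinese wild boar over Enshi black, HADHA, BDH1 and CROT still passed and ACAA2, at 1.61-fold (1.52 to 1.71), did not.

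By the Euclidean distance between log2 folds over Large White in the other 2 libraries, among the 4813 other named genes with at least 10 CPM in each library, the genes nearest to CPT1A were LIPG (distance 0.10), CPT2 (0.14) and AKR7A2 (0.18). LIPG, an endothelial lipase that liver also expresses, had 44.9 CPM in Large White, 81.3 in Enshi black and 159 in Chinese wild boar. Nearest to HADHA were G0S2 (0.04), AACS (0.50) and ATOX1 (0.51). Likeness rests on 3 libraries, so many genes can share an order without more in common.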

How the data were processed

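Liver RNA from 3 pigs was sequenced as 1 library per breed. The deposited tables hold raw read counts per Ensembl gene ID made by the authors, not normalized, per the file headers and the values. Build Sscrofa10.2 and the tools HTSeq 0.6.1, TopHat2 2.1.0 and edgeR 3.16.3 come from the submitters' processing notes. Not given in the sources used here: annotation release, strand setting, handling of multiply aligned reads. The 5 rows that name no gene were left out (no feature: 18.9% to 22.0% of reads). Symbols were matched for 11804 of 25322 IDs.

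Genes with at least 1 CPM by total counts in at least 1 library were kept (13228), and counts were scaled with TMM (edgeR 4.0.16, R 4.3.3). The factors were 0.978 for Large White, 1.04 for Enshi black and 0.979 for Chinese wild boar. At this depth a floor of 3 counts is worth 0.139 to 0.154 CPM. Folds carry 95% exact conditional binomial (Clopper-Pearson) intervals (scipy 1.17.1). Intervals cover counting error only and hold no variation between animals. They treat reads as independent molecules, which PCR reads without molecular identifiers are not, so they may be too narrow. Since each breed has 1 library, no p-value is given. List medians use a prior count of 2. The interval and size rule were run on simulated counts that varied by counting error alone. Such counts hold no variation between animals, so the run checked the calculation and not the differences between breeds.

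The 8 genes and all lists were chosen with earlier results of these data known. The genes named were all 8, up to 6 passing genes per list and comparison or, where none passed, 2 abundant ones, a fixed set of pathway genes, and the 3 genes nearest to CPT1A and to HADHA; other listed genes (ECI2, OXCT1 and CPT1B among them), those of the ratios, and DLG4 and the other neighbouring genes were chosen after their values were seen. Alternatives were other scalings (DESeq2 1.42.0 size factors among them), expression filters, near bounds, a wider interval and an assumed coefficient of variation between animals. No sequences or coordinates are reported. Some listed genes are not reported here.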

Additional observations from a re-analysis of the deposited data

How the results depend on the processing

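Counts below are genes past the size rule, first among the 8 genes and then among all 82 pathway genes. The main counts were 1 and 4 higher and 2 and 6 lower for Enshi black over Large White, 6 and 19 higher and 0 and 5 lower for Chinese wild boar over Large White, and 4 and 18 higher and 0 and 2 lower for Chinese wild boar over Enshi black. With DESeq2 size factors or no expression filter, every one of these 12 counts stayed within 1.5 times of its main value. With total counts, upper quartile factors, or total counts without the 10 most abundant IDs, the higher counts for Enshi black over Large White became 2 and 7, as CPT2 was added. Over all expressed genes, the median log2 fold of Enshi black over Large White was 0.11 with total counts, against 0.01 with TMM. A filter of 10 CPM removed ACADVL and left 0 of the 8 genes higher for Enshi black over Large White, and so did a wider interval (a confidence above 95%). Scaled on the citrate cycle and respiratory chain genes, the counts for Chinese wild boar over Large White became 3 and 7 higher and, among the 8 genes, 1 lower. For Chinese wild boar over Enshi black they became 8 higher among pathway genes, and 1 and 4 lower. That scaling moved the median of all genes to -0.44 and -0.42 in these comparisons. With a near bound of 1.5, the counts were 3 and 17 higher and, among pathway genes, 18 lower for Enshi black over Large White; 30 pathway genes higher and 1 of the 8 genes lower for Chinese wild boar over Large White; and 7 and 28 higher and 1 and 4 lower for Chinese wild boar over Enshi black. With a near bound of 3, they were 0 and 1 higher and 2 pathway genes lower, 3 and 7 higher and 1 pathway gene lower, and 6 pathway genes higher and 1 lower. With an assumed coefficient of variation of 0.2, they were 2 pathway genes higher and 3 lower for Enshi black over Large White, 1 and 5 higher and 0 pathway genes lower for Chinese wild boar over Large White, and 2 and 7 higher and 1 pathway gene lower for Chinese wild boar over Enshi black. With 0.4, they were 0 and 1 higher and 0 and 0 lower, 0 and 1 higher and 0 pathway genes lower, and 1 and 2 higher and 0 pathway genes lower. Only the 5 other scalings can move a fold. Of the 120 folds of the 8 genes under them, 35 left the main interval, 85 stayed inside it and none reversed a passing direction. With at least 1 CPM in place of 10, 2 of the 3 genes nearest to CPT1A and 1 of the 3 nearest to HADHA were kept. No paired analysis was possible because each breed has 1 library. The cause of these shifts was not tested beyond what each setting changes by construction.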

Other observations

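The genes next to the 8 enzymes were read by their order in RefSeq's Sscrofa11.1 annotation. ACAA2 has LIPG as a neighbour, and the 2 genes differed in the place of Large White. ACAA2 had 5525 counts in Large White, 1672 in Enshi black and 3293 in Chinese wild boar, while LIPG had 877, 1754 and 3139. LIPG, the lipase whose pattern lay nearest to that of CPT1A, was therefore lowest in the library where its neighbour was highest, while both were higher in Chinese wild boar than in Enshi black. TMEM243, next to CROT, had 611, 876 and 792 counts, without the high value of CROT in Chinese wild boar. LGALS4, next to ECH1, had 12 to 23 counts, APOD, next to BDH1, had 1 to 2. GAREM2, next to HADHA, had 10 counts in Large White, 16 in Enshi black and 49 in Chinese wild boar, which was also the high library of HADHA. These counts are low and carry no interval here, so the order of Large White and Enshi black is not read. These neighbours were chosen by position and described after their values were seen, and no explanation was tested.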
